A study of Homo sapiens with 6 samples.

Results

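The 10 genes described here, of 58735 in the deposited tables, encode the 5 NF-kB subunits (NFKB1, NFKB2, REL, RELA and RELB), 4 of their inhibitors (NFKBIA, NFKBIE, TNFAIP3 and CYLD) and the adaptor TRAF1. They were taken by gene name, and each name matched 1 row of the tables. All 10 were among the 16926 genes with enough counts to be tested. RNA sequencing of polyadenylated RNA was done on MOLT-3 cells, an established human line of T-cell acute lymphoblastic leukaemia, given either the solvent DMSO (3 libraries) or compound E (3 libraries), an inhibitor of gamma-secretase, the protease that releases the active part of NOTCH receptors. No genotype or further agent is named in the labels, and the sources used here do not give a dose or a duration. The study compared the groups to look for NOTCH1-controlled genes that bear on how these cells respond to chemotherapy. The labels do not say that the 3 libraries of a group came from separate cultures, so a p-value reflects only how these libraries vary, which may be technical.

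NF-kB is a family of transcription factors that work as pairs of subunits sharing the Rel homology domain. In resting cells inhibitor proteins, the IkB family, hold the pairs in the cytoplasm. Receptors of the TNF family and the T-cell receptor switch on the IKK kinase complex, which marks the inhibitors for destruction and frees the pairs to enter the nucleus. Several inhibitors are themselves NF-kB target genes and so form a feedback loop. In T-cell leukaemia NOTCH1 has been described as feeding this pathway, in part through HES1, a repressor of CYLD.

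Library totals ran from 17316138 to 19845114 counts. Compound E replicate 3 stood somewhat apart: the chi-square per degree of freedom of its counts against the other compound E libraries was 2.66 and 2.75, where the other replicate pairs gave 1.65 to 1.89. The NOTCH targets HES4 and DTX1 fell (log2 fold changes -4.90 and -4.60), and HES1 fell from 39.9 ± 2.81 to 8.92 ± 1.10 CPM (SD, n = 3 per group), where CPM is the read count scaled to library size. All 9 T-lineage markers checked (such as CD3D, LCK and RAG1) were tested, and 2 rose and 6 fell, beside 38.3% of all tested genes called in either direction. RAG1 rose 2.90-fold, from 69.3 to 202 FPKM, and CD2 rose 1.92-fold, while CD7 fell 1.66-fold, PTCRA fell 1.62-fold and CD3D fell from 514 to 407 FPKM. These opposite moves left the summed level of the 9 markers at 1137 to 1161 FPKM with DMSO and 1124 to 1144 with compound E. Of the B-cell markers MS4A1 and PAX5 were at 0 counts and CD79A was at 13.2 and 13.6 CPM in the 2 groups. The summed level of the 4 B-cell markers was 8.62 to 9.63 FPKM with DMSO and 8.74 to 9.53 with compound E. Of the 4 myeloid markers MPO was at 0 counts, and their summed level was 0.226 to 0.452 and 0.207 to 0.357 FPKM.

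With compound E, 6 of the 10 genes rose (RELA, RELB, NFKBIA, NFKBIE, TNFAIP3 and TRAF1), CYLD fell, and NFKB1, NFKB2 and REL did not pass the test. A gene was called at an adjusted p under 0.05 in edgeR's quasi-likelihood test, adjusted by Benjamini-Hochberg over all 16926 genes, of which 18.9% were called higher, 19.4% lower and 38.3% in either direction. The changes were small in all but 1 gene: 6 of the 7 called genes changed by under 1.5-fold, while TRAF1 rose 6.57-fold. A call of at least 2-fold was made for 1 of the 10 genes and for 3.83% of all tested genes. The median log2 fold change over the 10 genes was 0.19, beside -0.0034 over all tested genes. The libraries of the 2 groups did not overlap in 7 of the 10 genes, beside 46.8% of all tested genes, and in 6 of them every compound E library lay above every DMSO library, beside 23.3%. In bulk RNA, fewer cells that express a gene and less of its RNA per cell cannot be told apart. TRAF1 passed the filter on low counts through the compound E libraries alone. Of the other 9 genes, which passed it in both groups, 5 rose and 1 fell.

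Transcript levels were compared between genes on the deposited FPKM scale, which divides counts by gene length. The order depends on the listed lengths, which ran from 2373 bases for NFKBIA to 13170 for REL. By CPM with DMSO, REL (37.4) lay above NFKBIA (31.3) and NFKB2 (19.4), unlike the order by FPKM. With DMSO the order ran from TNFAIP3 at 29.1 ± 0.561 FPKM through RELA at 14.7 ± 0.426, NFKBIA at 13.1 ± 0.218 and CYLD at 5.15 ± 0.0528 to NFKB2 at 4.30 ± 0.170 (SD, n = 3 for each). REL at 2.81 ± 0.0867 and NFKBIE at 2.81 ± 0.204 FPKM came next, and their libraries overlapped. NFKB1 at 1.33 ± 0.0111 and RELB at 1.09 ± 0.205 FPKM also overlapped, and TRAF1 was far below the rest at 0.0383 ± 0.0125 FPKM. Other neighbours in this order did not overlap. Among all tested genes the mean FPKM of TNFAIP3 over the 6 libraries lay at percentile 92.3, those of RELA and NFKBIA at 80.6 and 79.1, and that of TRAF1 at 2.58. With compound E RELA (16.0 ± 0.536 FPKM) and NFKBIA (15.6 ± 0.442 FPKM) overlapped, as did NFKB2 (4.58 ± 0.308) and CYLD (4.54 ± 0.0959). NFKBIE (3.47 ± 0.323 FPKM) then lay above REL (2.91 ± 0.163) without overlap. RELB (1.51 ± 0.329 FPKM) and NFKB1 (1.43 ± 0.0552 FPKM) overlapped again, with the mean of RELB now the higher.

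**Figure D1:**
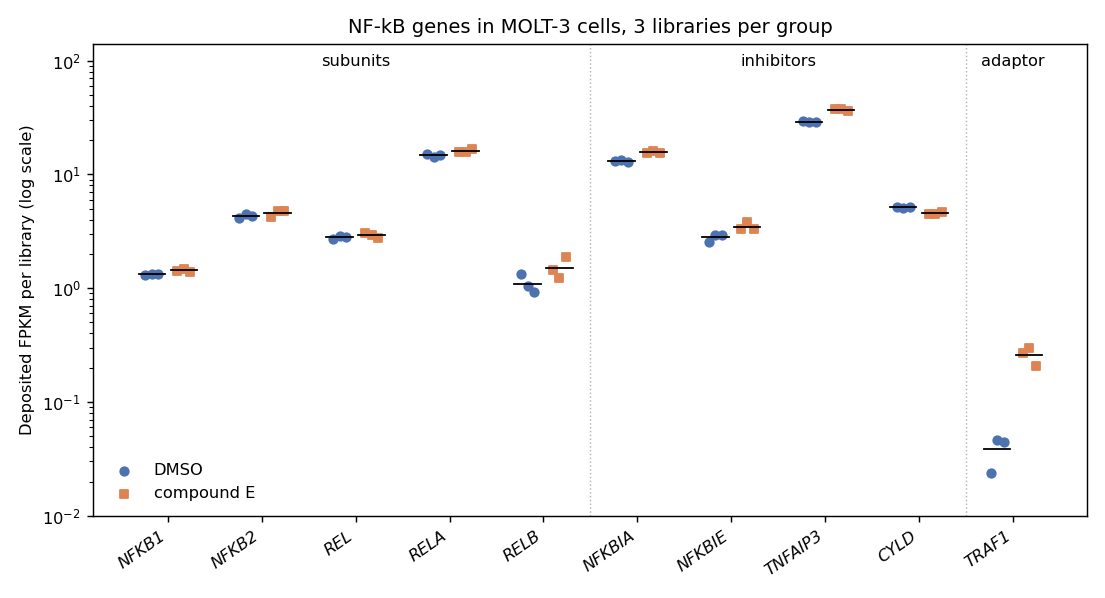
Deposited FPKM (log axis) of the 10 genes in each of the 3 DMSO libraries (circles) and 3 compound E libraries (squares), with black lines at group means. TNFAIP3 is the most abundant in both groups, and TRAF1 moves from a mean of 0.0383 to 0.258 FPKM.

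Among the subunits, RELA (chromosome 11, 65653596 to 65663094, minus strand, GRCh38), which carries the main activation domain of the canonical NF-kB pair, was at 82.4, 78.3 and 82.0 CPM in the DMSO libraries and at 86.4, 86.2 and 91.3 CPM in the compound E libraries. Every compound E library lay above every DMSO library. RELA rose 1.09-fold (log2 fold change 0.12 ± 0.0392 SE, edgeR adjusted p = 0.0121). The call rested on individual libraries and was lost without DMSO replicate 2 (adjusted p = 0.0894) or compound E replicate 3 (0.0676). RELA shares 9 bases at its start with AP001362.2, a lincRNA gene on the opposite strand, which was at 2.92 ± 0.260 CPM with DMSO and 2.35 ± 0.683 CPM with compound E (edgeR adjusted p = 0.248).

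RELB (chromosome 19, 45001430 to 45038198, plus strand), the partner of processed NFKB2 in the non-canonical pathway, was at 4.04, 3.18 and 2.83 CPM with DMSO and at 4.43, 3.71 and 5.68 CPM with compound E. The groups overlapped, because compound E replicate 2 lay below DMSO replicate 1, and the highest value was in compound E replicate 3. RELB rose 1.37-fold (log2 fold change 0.46 ± 0.171 SE, edgeR adjusted p = 0.0323), with a 95% confidence interval of 1.08-fold to 1.75-fold. It had only 49 to 107 counts per library. DESeq2 did not call it (adjusted p = 0.107), and in edgeR the call was lost without DMSO replicate 2 (0.0985), DMSO replicate 3 (0.134) or compound E replicate 3 (0.272). Without compound E replicate 3 its log2 fold change was 0.28.

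The remaining subunits did not pass the test, and their intervals bound how much they could have changed. NFKB1, made as a precursor that is cut to a DNA-binding subunit, was at 8.29, 8.43 and 8.44 CPM with DMSO and 8.97, 9.35 and 8.66 CPM with compound E. Its compound E libraries lay just above its DMSO libraries, but the edgeR adjusted p was 0.485 and the 95% interval of the fold ran from 0.926 to 1.24. NFKB2, the precursor of the non-canonical pathway, was at 19.4 ± 0.796 and 20.6 ± 1.37 CPM (SD, n = 3 per group, edgeR adjusted p = 0.388), with an interval of 0.958 to 1.17. REL, the subunit most used by lymphocytes after antigen receptor signals, was at 37.4 ± 1.21 and 38.5 ± 2.18 CPM (edgeR adjusted p = 0.596), with the narrowest of these intervals at 0.953 to 1.11.

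The make-up of the subunit transcripts by FPKM was close in the 2 groups, though the size of each share depends on the listed gene lengths. RELA made up 60.6% ± 1.13 of the summed FPKM of the 5 subunits with DMSO and 60.6% ± 0.279 with compound E, NFKB2 17.8% ± 0.906 and 17.3% ± 0.945, and REL 11.6% ± 0.484 and 11.0% ± 0.931 (SD, n = 3 per group). NFKB1 held 5.49% ± 0.101 and 5.42% ± 0.348. RELB went from 4.52% ± 0.811 to 5.69% ± 1.07, with libraries that overlapped. The summed level of the 5 subunits was 24.5, 23.9 and 24.2 FPKM with DMSO and 25.9, 26.1 and 27.4 FPKM with compound E. All compound E libraries were higher (exact permutation test, two-sided p = 0.1, the smallest that 3 against 3 allows, and 0.2 after adjustment over 8 such quantities).

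**Figure D2:**
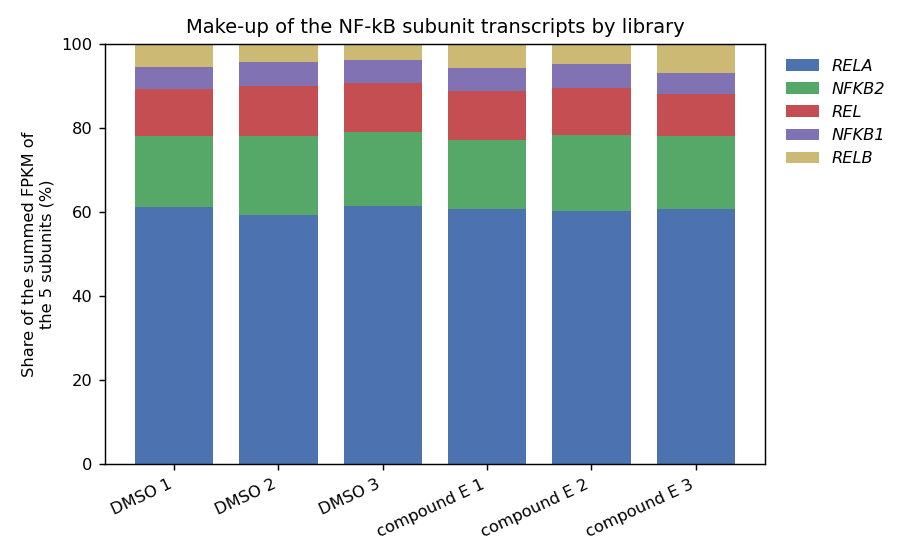
Share of each NF-kB subunit in the summed deposited FPKM of the 5 subunits, in percent, stacked for each of the 6 libraries. RELA takes 59.3% to 61.3% in every library, and RELB is highest, at 6.81%, in compound E replicate 3.

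Of the inhibitors, 3 rose and 1 fell. TNFAIP3 (chromosome 6, 137867188 to 137883312, plus strand), a ubiquitin-editing enzyme that shuts down signals to IKK, was at 151, 146 and 147 CPM with DMSO and at 191, 192 and 183 CPM with compound E. The groups were far apart relative to their spread. TNFAIP3 rose 1.27-fold (log2 fold change 0.35 ± 0.0315 SE, edgeR adjusted p = 7.34e-12), the smallest p of the 10 genes, and passed in all 10 other settings and all 6 fits that left out a library. Its first 1046 bases (137867188 to 137868233) overlap AL357060.1, an antisense gene on the minus strand. AL357060.1 was at 63.4, 59.3 and 65.4 CPM with DMSO and 81.9, 85.2 and 84.6 CPM with compound E, and it rose 1.34-fold (edgeR adjusted p = 8.51e-11). The sources used here do not say whether the authors' counting used strand, so reads from the shared stretch cannot be told apart.

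NFKBIA (chromosome 14, 35401511 to 35404749, minus strand), the classical IkB protein that pulls RELA pairs out of the nucleus, was at 31.2, 31.8 and 30.7 CPM with DMSO and at 36.5, 38.4 and 36.8 CPM with compound E. Its groups did not overlap. It rose 1.19-fold (log2 fold change 0.25 ± 0.0544 SE, edgeR adjusted p = 0.000264) and kept its call in every setting run. NFKBIE (chromosome 6, 44258166 to 44265788, minus strand), a related IkB protein, was at 6.68, 7.62 and 7.63 CPM with DMSO and at 8.53, 9.96 and 8.50 CPM with compound E. Its groups did not overlap either, and it rose 1.23-fold (log2 fold change 0.30 ± 0.112 SE, edgeR adjusted p = 0.0322). That call was lost with DESeq2 (adjusted p = 0.109) and in edgeR without DMSO replicate 1 (0.146) or compound E replicate 2 (0.18).

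CYLD (chromosome 16, 50742050 to 50801935, plus strand), an enzyme that strips ubiquitin chains from parts of the IKK pathway, went the other way. It was at 67.1, 66.7 and 68.1 CPM with DMSO and at 58.2, 58.5 and 60.4 CPM with compound E, with no overlap. CYLD fell 1.14-fold (log2 fold change -0.19 ± 0.0423 SE, edgeR adjusted p = 0.000381) and was called lower in every setting run. In the same libraries HES1, the repressor named above, fell by 2.16 on the log2 scale (edgeR adjusted p = 4.19e-24).

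Ratios between the genes were taken within each library on the FPKM scale. TNFAIP3 over CYLD was 5.78, 5.63 and 5.54 with DMSO and 8.44, 8.41 and 7.76 with compound E. NFKBIA over the summed subunits was 0.534, 0.555 and 0.529 with DMSO and 0.591, 0.618 and 0.563 with compound E. In both ratios every compound E library was above every DMSO library (exact permutation test, two-sided p = 0.1, the smallest possible, adjusted p = 0.2 over 8 quantities). For TNFAIP3 over CYLD this had to follow, because the genes moved in opposite directions without overlap. Its p therefore adds nothing to their separate calls. NFKBIA over RELA (0.891 ± 0.0390 and 0.975 ± 0.0494, exact permutation p = 0.2) and RELB over RELA (0.0745 ± 0.0131 and 0.0939 ± 0.0174, exact permutation p = 0.2) overlapped between groups. NFKBIE over NFKBIA was 0.215 ± 0.0164 and 0.222 ± 0.0143 (exact permutation p = 0.6), and NFKB2 over NFKB1 was 3.24 ± 0.109 and 3.20 ± 0.249 (exact permutation p = 0.9). Both of these last ratios differed by less than the spread between replicates.

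TRAF1 (chromosome 9, 120902393 to 120929173, minus strand), an adaptor of TNF-family receptors whose gene is a known NF-kB target, showed the largest relative change at the lowest level. Its counts were 3, 6 and 5 with DMSO and 32, 35 and 25 with compound E. Every compound E library was several times above every DMSO library, yet the gene stayed below 2 CPM throughout. TRAF1 rose 6.57-fold (log2 fold change 2.72 ± 0.373 SE, edgeR adjusted p = 1.36e-07), with a 95% interval of 3.90-fold to 11.1-fold. Summed over libraries, 92 against 14 counts gave a scaled ratio of 6.72, with an exact interval of 3.81 to 12.8 that covers counting error only. Of all 16926 tested genes 14, TRAF1 among them, had a log2 fold change at least as high as that of TRAF1. TRAF1 entered the tested genes through its compound E libraries alone. That selection favours a rise, so its p and this rank are not independent support. Its FPKM with compound E was 0.270, 0.299 and 0.205, where TRAF2 and TRAF3, adaptors of the same receptors, averaged 15.4 and 16.8 FPKM.

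**Figure D3:**
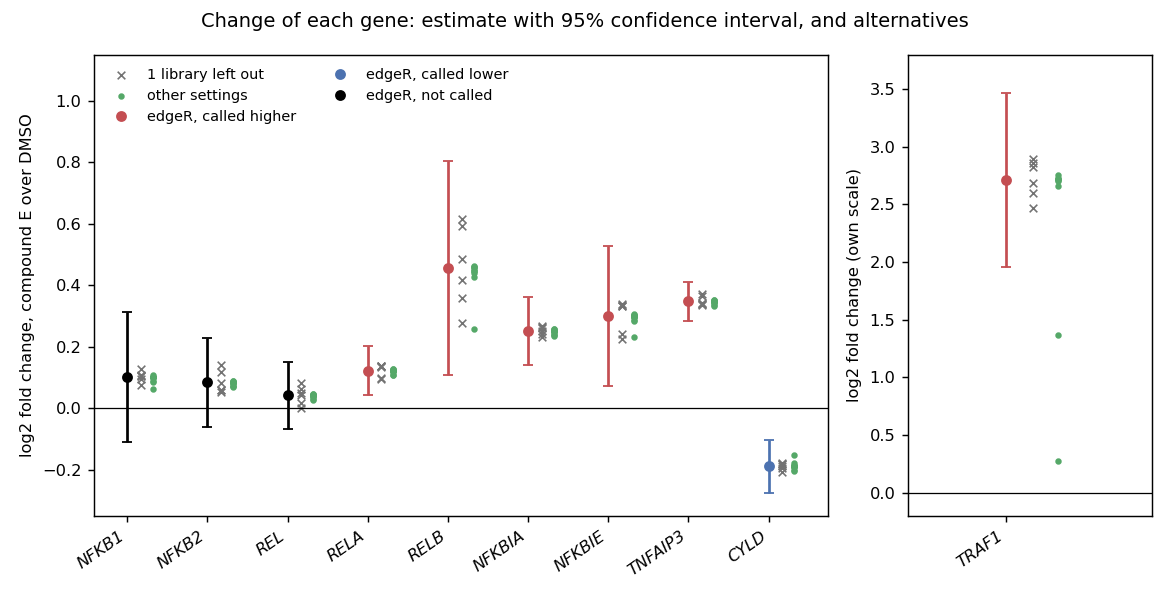
Log2 fold change of compound E over DMSO for each gene, with edgeR's 95% confidence interval (coloured or black circle and bar), the 6 fits that leave out 1 library (crosses) and the other settings (green dots). TRAF1 has its own axis, and its lowest dots, at 0.28 and 1.37, come from FPKM with pseudocounts of 1 and 0.1. The other called genes lie between -0.19 and 0.46.

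Sequences before the RefSeq transcription starts (GRCh38.p14) were searched because these genes include well-known NF-kB targets. RefSeq windows of 250 bases before to 50 bases after a start were found for 8 of the 10 genes, 16 windows in all. NFKBIE and RELB had no entry. The kappaB consensus on either strand matched in at least 1 window of 6 of the 8 genes (NFKB1, NFKB2, REL, NFKBIA, TNFAIP3 and CYLD). It matched in 8 of these 16 windows, beside 11.3% of 35116 windows, and in 13.3% of 27305 genes. A gene with more windows has more chances of a match. The letters TGGGAA are the core of the motif bound by RBPJ, the DNA-binding partner of NOTCH. On either strand they matched in NFKB1, NFKB2, RELA and TRAF1, beside 28.1% of all genes. By window they matched in 5 of the 16, beside 24.0% of all windows. The matches of the 2 motifs overlapped in a window each of NFKB1 and NFKB2. Genes with kappaB letters thus include called and uncalled ones, and a match or its absence is a description of these windows only. The 250 bases before the start nearest to the gene's listed start are given for the 3 most clearly changed inhibitors and for TRAF1. They lie at chr14:35404750-35404999 (minus strand) for NFKBIA, chr6:137867009-137867258 (plus strand) for TNFAIP3, chr16:50741836-50742085 (plus strand) for CYLD and chr9:120929172-120929421 (minus strand) for TRAF1. Each is written 5′ to 3′ in the direction of the gene, and capitals mark matches of the kappaB consensus.
NFKBIA: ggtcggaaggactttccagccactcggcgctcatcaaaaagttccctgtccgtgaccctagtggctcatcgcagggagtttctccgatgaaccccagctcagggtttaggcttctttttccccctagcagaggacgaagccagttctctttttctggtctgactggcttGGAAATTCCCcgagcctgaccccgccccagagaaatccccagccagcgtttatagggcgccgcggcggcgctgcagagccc
TNFAIP3: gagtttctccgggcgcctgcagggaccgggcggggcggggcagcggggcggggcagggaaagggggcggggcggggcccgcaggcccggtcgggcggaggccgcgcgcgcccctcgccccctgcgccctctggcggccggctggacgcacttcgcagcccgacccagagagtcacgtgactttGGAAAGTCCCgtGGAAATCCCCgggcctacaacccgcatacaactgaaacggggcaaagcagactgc
CYLD: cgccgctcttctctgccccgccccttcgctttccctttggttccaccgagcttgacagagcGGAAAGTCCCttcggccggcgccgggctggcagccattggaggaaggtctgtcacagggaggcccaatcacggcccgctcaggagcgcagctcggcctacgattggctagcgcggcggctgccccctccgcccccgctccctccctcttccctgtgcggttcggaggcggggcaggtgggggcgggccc
TRAF1: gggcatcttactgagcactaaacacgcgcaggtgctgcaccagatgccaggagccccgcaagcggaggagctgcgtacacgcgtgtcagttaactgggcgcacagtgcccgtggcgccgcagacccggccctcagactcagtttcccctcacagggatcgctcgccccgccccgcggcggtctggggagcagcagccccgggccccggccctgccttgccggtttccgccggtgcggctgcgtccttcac
TNFAIP3 holds a pair of matches, 67 to 58 and 55 to 46 bases before its start. NFKBIA holds 1 match 81 to 72 bases before the start and CYLD 1 match 189 to 180 bases before it. The TRAF1 window holds neither motif, and its TGGGAA letters lie before a start within the gene.

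The rest of the pathway was read from lists of genes by role that hold none of the 10 genes. Of their 97 genes 65 were tested, and 18 rose and 17 fell, with a median log2 fold change of 0.0092. Together 53.8% were called, beside 38.3% of all tested genes. The share called depends on how many low-count genes are tested. With the filter of 5 CPM in 3 libraries, 2696 of 11127 tested genes were called higher and 2840 lower. Of the 52 pathway genes left by that filter, 18 rose and 14 fell. The lists were chosen with earlier results of these data known, so the shares are a description only.

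Among receptors, 8 of 18 were tested, with 0 higher and 5 lower (median -0.39). Over all tested genes 18.9% were called higher and 19.4% lower. TNFRSF4, the co-stimulatory receptor OX40, fell most, from 30.6 ± 4.08 to 3.57 ± 0.310 CPM (SD, n = 3 per group; log2 fold change -3.09, edgeR adjusted p = 7.39e-25). TNFRSF8, the receptor CD30, fell from 10.6 ± 0.139 to 3.98 ± 0.431 CPM. TNFRSF13C, the receptor for the survival factor BAFF, fell by 0.55 on the log2 scale. TNFRSF1A, the main TNF receptor, fell by 0.24 on the log2 scale. TNFRSF18, counted among the 5 and named after its value was seen, was called lower at -1.66 but passed the filter through the DMSO libraries alone. CD40, TNFRSF9 and TLR4 were at 0 counts in every library.

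Of 14 ligands 7 were tested, and 1 rose and 2 fell. Together 42.9% were called, near the 38.3% of all tested genes. CD40LG, the T-cell ligand of CD40, fell from 58.4 ± 0.945 to 19.6 ± 0.420 CPM (log2 fold change -1.58, edgeR adjusted p = 8.71e-25). LTB, a lymphotoxin chain, rose from 63.1 ± 2.28 to 77.5 ± 7.61 CPM. TNFSF9 was called lower at -0.64 with overlapping groups. TNF had at most 3 counts in a library and was not tested.

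Between receptor and IKK, 3 of 5 genes of the non-canonical arm rose and 0 fell (median 0.14), beside 18.9% and 19.4% of all tested genes. BIRC2, a ubiquitin ligase that holds the kinase MAP3K14 in check, rose from 48.5 ± 1.70 to 67.6 ± 1.58 CPM (log2 fold change 0.48, edgeR adjusted p = 1.71e-11), and MAP3K14 itself rose from 23.2 ± 2.47 to 28.1 ± 0.588 CPM. TRAF3 rose by 0.14, and TRAF2 was at 56.7 ± 1.34 and 56.6 ± 3.31 CPM. Of the 7 other TRAF proteins and TRAF-binding proteins 2 rose and 3 fell (median -0.08), beside the same shares of all tested genes. TRAF3IP3 was at 0.22, against TRAF3IP2 at -0.66, TRAF7 at -0.20 and TRAF5 at -0.19. In this family TRAF1, which passed the filter through the compound E libraries alone, was the only one past 2-fold.

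Of 11 genes of the IKK complex, the TAK1 kinase complex and the linear ubiquitin ligase 2 rose and 1 fell (median 0.02). Together 27.3% were called, below the 38.3% of all tested genes. RBCK1, of the linear ubiquitin ligase, fell from 226 ± 1.76 to 156 ± 5.68 CPM (log2 fold change -0.54, edgeR adjusted p = 1.55e-17). CHUK, an IKK kinase, rose by 0.25 and TAB2, of the TAK1 complex, by 0.11, while the other IKK kinase, IKBKB, was at 150 ± 9.05 and 148 ± 4.45 CPM (edgeR adjusted p = 0.602). Of the genes that link the T-cell receptor to IKK, the kinase PRKCQ rose by 0.13 and the protease MALT1 fell by 0.22 on the log2 scale.

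The list of TNFAIP3 partners also holds SPATA2, which is a partner of CYLD. Of its 6 tested genes, 3 rose (TNIP2 at 0.28, RNF11 and SPATA2 at 0.20 each) and TNIP1 fell (-0.18). Among all tested genes 18.9% were called higher and 19.4% lower. Among the other IkB proteins NFKBID rose by 0.31, NFKBIB was at 31.2 ± 0.474 and 31.8 ± 1.30 CPM, and NFKBIZ, at a log2 fold change of 0.30 and under 2 CPM, did not pass (edgeR adjusted p = 0.372).

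Known NF-kB target genes went both ways. Of 27 listed, among them SOD2, which was set aside for its repeated symbol, 14 were tested, and 5 rose and 3 fell (median 0.04). All tested genes also went both ways, with 18.9% called higher and 19.4% lower, so this is not particular to the target genes. CD83, a surface marker of activated lymphocytes, rose from 14.6 ± 1.69 to 25.8 ± 1.42 CPM (log2 fold change 0.82, edgeR adjusted p = 1.68e-11), and BCL2L1, a survival protein, rose by 0.39. CD44, an adhesion receptor, fell by 0.93 on the log2 scale and IRF1, a transcription factor of interferon responses, fell by 0.32. Among the genes not tested, 5 were at 0 counts in every library, including IL6, CCL3 and CCL4.

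**Figure D4:**
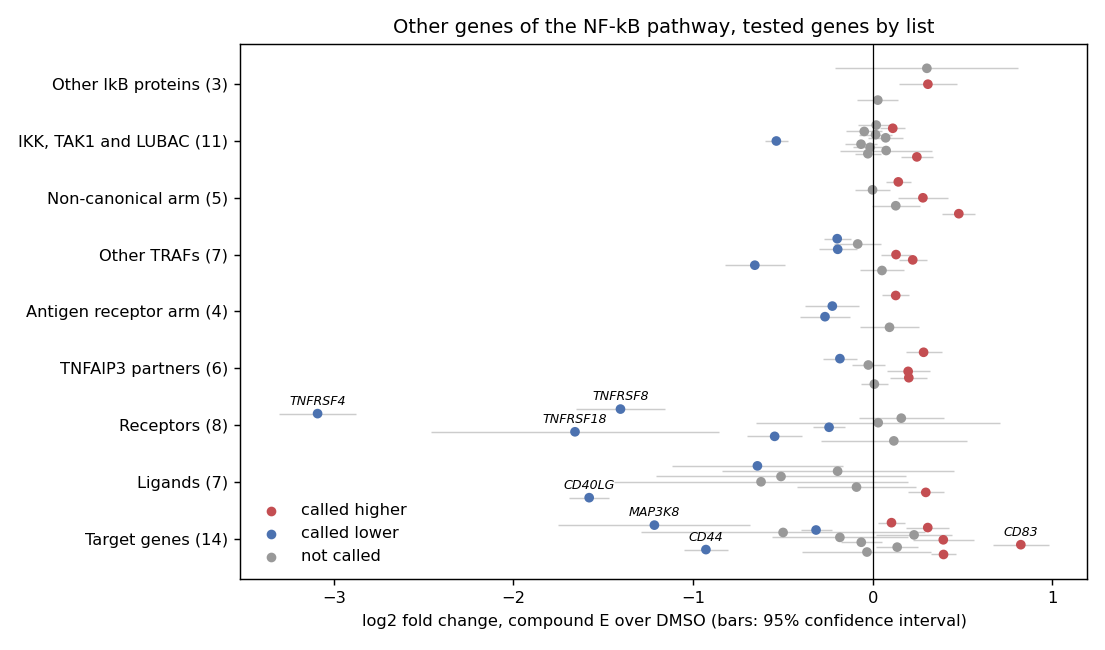
Log2 fold change (x axis) of the tested genes of each other pathway list (rows, number tested in brackets), with 95% confidence intervals from edgeR; red is called higher, blue called lower and grey not called. Called genes with an absolute log2 fold change of at least 0.8 are named, among them TNFRSF4 at -3.09, CD40LG at -1.58, MAP3K8 at -1.22 and CD83 at 0.82.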

How the data were processed

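Per the labels, messenger RNA was taken with poly-T beads and made into libraries with a NEBNext Ultra kit. The authors deposited raw read counts per gene and an FPKM table. The submitters' processing notes name HISAT2 2.0.5, featureCounts 1.5.0-p3 and DESeq2 1.16.1, with no role or order. The sources used here give no build, strand use or treatment of multi-mapping reads. All 58735 genes matched GENCODE release 29 (GRCh38) in start, end, strand and name. In the deposited FPKM table each value was the count divided by gene length and 1 divisor per library, 0.996 to 1.01 times the library's total.

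Counts were analysed with edgeR 4.0.16 in R 4.3.3: filterByExpr (about 0.538 CPM in 3 libraries), TMM scaling and the quasi-likelihood test with treatment as the only term. The code was tested on simulated counts, with few changed genes and the same set variability for every gene, unlike these data. That test does not check the calls made here. A standard error is the log2 fold change over the root of F. The genes and lists were chosen with earlier results of these data known. The text names the 10 genes, up to 4 called genes per list, neighbours, overlapping genes with a mean of at least 10 counts, and the 3 genes most like each of 4 genes. Further names were added after their values were seen. SOD2, whose symbol is on more than 1 row, was left out of the tested genes of its list but is in the number of listed genes. Alternatives were 3 other scalings, 2 other filters, DESeq2 1.42.0, limma-voom and limma on log2 FPKM (limma 3.58.1), the replicate block and each library left out. A result for 1 listed pathway gene is not reported here.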

Additional observations from a re-analysis of the deposited data

How the results depend on the processing

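No direction reversed among the 10 genes in any alternative. TNFAIP3, NFKBIA, CYLD and TRAF1 kept their call in every alternative that tested them. The number of these genes called higher was 4 to 6 and the number called lower 1 throughout. With DESeq2 RELB (log2 fold change 0.46) and NFKBIE (0.30) were no longer called. RELB also lost its call with limma on log2(FPKM + 1) (0.26) and log2(FPKM + 0.1) (0.43), and NFKBIE with limma on log2(FPKM + 1) (0.23) and without a filter (0.31). The cause was not tested. With a library left out, RELA ranged from 0.094 to 0.139, RELB from 0.28 to 0.62 and NFKBIE from 0.22 to 0.34. The stricter filter removed RELB and TRAF1, and the pseudocounts lowered the fold of TRAF1.

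Over all tested genes no pairing by replicate number was seen: deviations of same-numbered libraries correlated at 0.01, -0.02 and 0.00012. A pairing limited to a subset of genes was not tested. With the replicate block 6 of the 10 genes rose, 1 fell, and 3019 genes of all tested rose and 3119 fell. It was 3206 and 3278 without the block. Counts of 3 to 6 per DMSO library limit the fold of TRAF1, and 49 to 107 counts that of RELB.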

Other observations

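The nearest tested protein-coding genes were read beside each called gene. PHF19, 7.50 kb from TRAF1, rose 1.39-fold from 70.4 ± 2.01 to 98.0 ± 3.30 CPM (log2 fold change 0.48, edgeR adjusted p = 5.92e-13), and C5, 23.2 kb away on the other side, was at 1.56 ± 0.107 and 1.59 ± 0.182 CPM (edgeR adjusted p = 0.933). CLPTM1 and CLASRP on either side of RELB rose by 0.17 and 0.15 on the log2 scale, as did SLC35B2 (0.17) and TMEM151B (0.66) beside NFKBIE. SIPA1 beside RELA rose by 0.26, and KAT5 on its other side was at 0.02. PSMA6 rose by 0.36 and RALGAPA1 fell by 0.27 beside NFKBIA. IFNGR1, 648 kb from TNFAIP3, fell by 0.16, and HEBP2, 520 kb away on the other side, was at 0.03. The neighbours of CYLD were more than 370 kb away: BRD7 was at 129 ± 4.50 and 129 ± 1.06 CPM, and HNRNPA1P48, whose reads may be shared with near-identical copies, at 26.9 ± 1.72 and 26.9 ± 1.33 CPM.

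Genes most like 4 of the 10 were found by Pearson's r of log2 CPM over the 6 libraries, among 11951 or 11950 protein-coding genes. They were RCN2, AP2M1 and MPP1 for TRAF1, ABRACL, EIF4A1 and SEC61B for NFKBIA, LAPTM4B, UBXN6 and TMC8 for CYLD, and SIRT7, H3F3B and CHD1 for TNFAIP3. All these r lie between 0.998 and 1.00, the points share libraries and split by treatment, and 923 to 1046 genes reached an r of 0.95 with each of the 4. Pearson's r takes no account of the size of a change. RCN2, AP2M1 and MPP1 rose by 0.19, 0.20 and 0.28 on the log2 scale, where TRAF1 rose by 2.72. Their DMSO means were 106, 224 and 92.9 CPM, beside 0.249 CPM for TRAF1.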
